A study of Rattus norvegicus with 38 samples.

Results

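Late-stage and early-stage neuron libraries of Wistar rats were compared, using 9 of the 38 libraries of the series. The late group held 4 libraries, from animals 350, 351, 353 and 354, aged 32 to 34 weeks, and the early group 5, from animals 340, 343, 346, 349 and 368, aged 24 to 25 weeks. Membership followed the labels alone, which give the capture (cortical neuron clusters), the strain and the stage, and used no measured value. The labels name no treatment or genetic change in any of these animals, so within Wistar rats the stages named for hypertension are groups by age. The other libraries used here were 10 neuron libraries of SHRSP rats, the stroke-prone spontaneously hypertensive strain, 5 late and 5 early at the same ages, and 9 vessel libraries cut from the cortex of the same Wistar animals, 4 late and 5 early.

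The cerebral cortex holds excitatory pyramidal neurons and inhibitory interneurons, surrounded by glia and by a dense network of small vessels. A cluster of neurons cut by laser from a section therefore also takes in pieces of processes, glia and capillaries. Wistar is a widely used outbred laboratory strain that serves as a normotensive comparison for SHRSP. The libraries were read from the 3′ ends of transcripts, so that a transcript gives about 1 fragment whatever its length. In such bulk captures, fewer cells of a type and less RNA per cell cannot be told apart. The deposited table gives Ensembl gene IDs without gene names, and 0 of its 32883 IDs matched the reference gene table used here. Genes are therefore given by ID, with no name or role, and the labelled cell type was not checked against named markers.

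The 4 late libraries had 2916345 to 4101901 counts and the 5 early libraries 2318666 to 3382133, a difference within the spread between libraries (exact permutation test, two-sided, p = 0.254, adjusted p = 0.254 over 3 tests of single library measures). IDs with any count numbered 13848 to 14094 in late libraries and 9501 to 14045 in early ones. At an equal depth of 2318666 counts the expected number of IDs was 13622 ± 224 in late libraries (SD, n = 4) and 12439 ± 1712 in early libraries (SD, n = 5; exact permutation test, p = 0.143, adjusted p = 0.214). Early animal 343 stood apart at 9440 IDs, against 12751 to 13684 in the other early libraries. The biological coefficient of variation, the spread between libraries beyond counting error, was 0.273 in late and 0.560 in early Wistar libraries. It was 0.349 in the early ones without animal 343, against 0.272 and 0.275 in the late and early SHRSP neuron groups.

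The most abundant ID, ENSRNOG00000043866, took a larger part of the late libraries. Its share of the counts was 35.5% in animal 350, 24.3% in 351, 34.98% in 353 and 35.3% in 354 among the late animals. Among the early animals it was 9.48% in 340, 6.78% in 343, 10.7% in 346, 24.6% in 349 and 4.34% in 368. Each share rests on 146888 to 1447773 counts of this ID, so its exact binomial 95% interval is narrow (24.26% to 24.35% in animal 351 and 24.59% to 24.69% in 349) and covers counting error only. The late animals other than 351 lay above all early animals, while early animal 349 lay just above late animal 351, so the groups overlapped by this pair. The means were 32.5% ± 5.48 in late libraries (SD, n = 4) and 11.2% ± 7.91 in early libraries (SD, n = 5), a difference of 21.3 percentage points (exact permutation test, two-sided, p = 0.0238, adjusted p = 0.0714). The smallest p that 4 against 5 libraries allow is 0.00794. The difference did not pass the threshold after adjustment.

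In the fit across all IDs the level of ENSRNOG00000043866 in CPM (counts scaled by the TMM-adjusted library totals) averaged 402560 ± 98225 in late libraries (SD, n = 4) and 105210 ± 85471 in early libraries (SD, n = 5), a 3.83-fold rise (log2 fold 1.94, SE 0.48, edgeR quasi-likelihood test, adjusted p = 0.0185). Without late animal 350 or 353 the call was lost (adjusted p = 0.0548 and 0.0663), as it was with only the Wistar libraries in the fit (0.0571) and with no filter on low counts (0.0668). With the high or low share of a library as a term in the fit, the log2 fold was 0.58 (adjusted p = 0.954). Among high-share libraries alone it was 0.63. The split into high and low was made on the share of this same ID, so these smaller folds are built in. The second most abundant ID moved the same way, at 6.26% to 7.34% of the counts in late libraries and 1.49% to 4.64% in early libraries, with no overlap (log2 fold 1.70, SE 0.34, adjusted p = 0.00841). Among the 12 most abundant IDs, 3 rose in late libraries and 0 fell, where 5.84% of all IDs tested rose and 3.47% fell, and 15.9% of the highest of 5 equal bins by level were called in either direction. The other 9 had log2 folds between -0.65 and 0.31 and did not pass, 8 of them below 0. The third most abundant, for example, held 0.558% to 1.68% in late libraries and 1.13% to 3.77% in early libraries (log2 fold -0.65, adjusted p = 0.158).

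**Figure D1:**
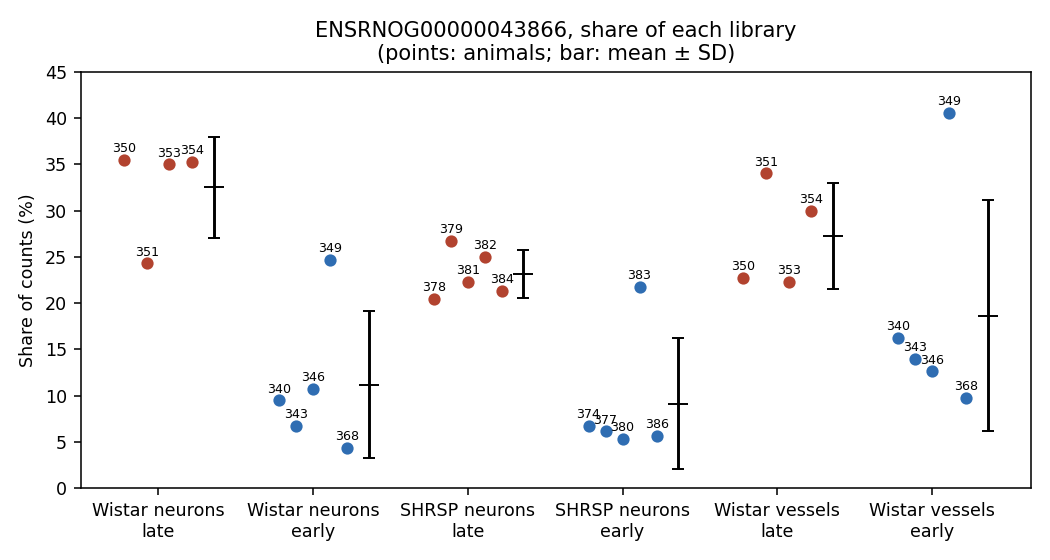
Share of ENSRNOG00000043866 in each library, in percent of its counts (y axis), by group; points are animals with their numbers, and bars the mean and SD. Late Wistar neurons lay between 24.3% and 35.5%, and the early ones between 4.34% and 24.6%, with animal 349 at the top in the early group of both captures.

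Early animal 349 was also high in its vessel library. In Wistar vessels the share was 22.3% to 34.0% in late animals and 9.73% to 40.6% in early animals, and animal 349 had the 40.6%, against 9.73% to 16.3% in the other early animals. In SHRSP neurons it was 20.4% to 26.7% in late libraries and 5.37% to 21.8% in early libraries, where 1 animal, 383, had the 21.8% and the others at most 6.74%. Sorted by share, the 19 neuron libraries of both strains had their widest gap between 10.7% and 20.4%. All 4 late Wistar libraries and 1 of the 5 early ones lay above it, so stage and share could be set against each other in animal 349 alone among the Wistar animals.

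Across the 10833 IDs tested, 633 rose and 376 fell in late Wistar neurons (edgeR quasi-likelihood test, Benjamini-Hochberg adjusted p under 0.05). The 1009 calls are 9.31% of the IDs tested, 5.84% higher and 3.47% lower. The changes were larger upwards: the median log2 fold was 1.52 over the higher calls and -0.95 over the lower calls, and over all IDs tested it was -0.03. At least a 2-fold difference was found in 490 of the higher and 171 of the lower calls, and at least a 4-fold difference in 180 and 23. The 4 late and 5 early libraries did not overlap in 625 of the 1009 calls (398 higher, 227 lower), and over all IDs tested in 1069, or 9.87% (6.12% higher and 3.75% lower). With early animal 349 set aside, 871 of the calls and 2049 of all IDs tested, 18.9%, did not overlap. Leaving out a library can only raise these counts, and no other animal was set aside in this way. None of the 1009 calls rested on a group without counts.

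Calls were more frequent among abundant IDs. With the IDs split by level into 5 bins of equal size, 4.2% of the lowest bin were called, 78 higher and 13 lower. In the middle bin it was 8.86%, 127 higher and 65 lower, and in the highest bin 15.9%, 180 higher and 165 lower. The median absolute log2 fold of the calls ran the other way, at 2.61 in the lowest, 1.60 in the middle and 0.86 in the highest bin. Higher IDs made up 85.7% of the calls in the lowest bin and 52.2% in the highest.

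**Figure D2:**
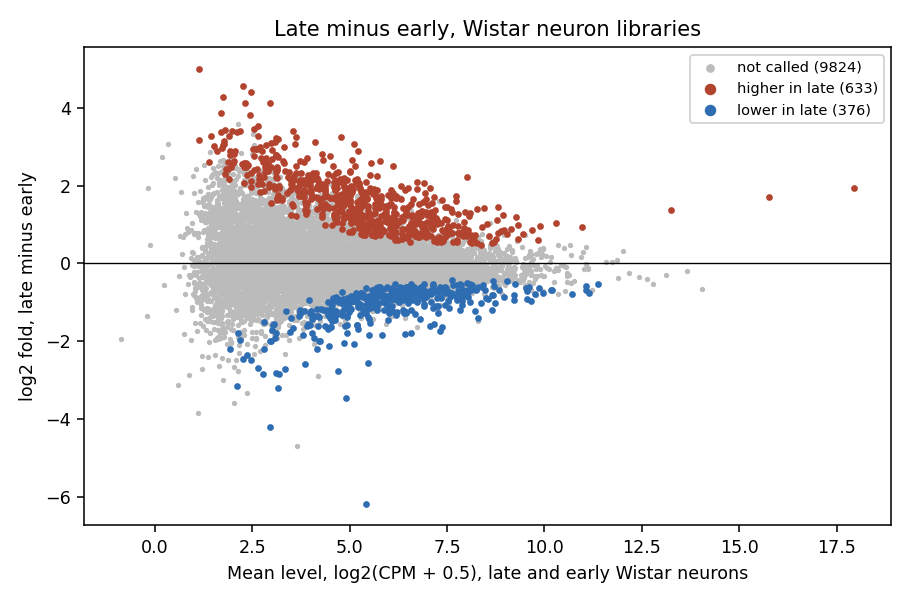
Log2 fold of late minus early Wistar neurons (y axis) against the mean level of each of the 10833 IDs (x axis, log2 of CPM plus 0.5); red points are the 633 higher and blue points the 376 lower calls. Higher calls extend to larger folds at low levels, and 3 of the called IDs on the far right are among the 12 most abundant.

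The IDs printed next are the pairs with the smallest p in each direction. ENSRNOG00000009894 had 89.9, 32.8, 79.3 and 41.5 CPM in late animals 350, 351, 353 and 354, and 9.80, 5.72, 5.25, 10.6 and 4.45 CPM in early animals 340, 343, 346, 349 and 368. Every late library was above every early one, and animals 350 and 353 were about 2 times as high as the other 2 late animals. The rise was 8.43-fold (log2 fold 3.08, SE 0.38, edgeR quasi-likelihood test, adjusted p = 0.000134).

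ENSRNOG00000011937 had 50.6, 34.1, 43.8 and 35.2 CPM in the late animals in the same order, and 6.96, 6.99, 8.08, 11.9 and 6.67 CPM in the early animals. Its groups did not overlap, and the highest early value was that of animal 349. It rose 5.02-fold (log2 fold 2.33, SE 0.29, adjusted p = 0.000134).

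ENSRNOG00000010358 had 56.3, 46.0, 44.7 and 48.4 CPM in late animals and 112.6, 153.7, 114.0, 81.8 and 133.4 CPM in early animals. All late values were below all early ones, and the early value nearest to them was again that of animal 349. It fell to 48.9 ± 5.21 CPM in late libraries (SD, n = 4), against 119.1 ± 26.7 CPM in early libraries (SD, n = 5), which is 2.44-fold lower (log2 fold -1.29, SE 0.19, adjusted p = 0.00181).

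ENSRNOG00000024923 had 69.4, 85.3, 72.3 and 62.2 CPM in late animals and 207.4, 270.3, 181.0, 163.4 and 249.7 CPM in early animals. The late values lay close together at 72.3 ± 9.62 CPM (SD, n = 4), and the lowest early value was that of animal 349. It was 2.96-fold lower in late libraries (log2 fold -1.57, SE 0.24, adjusted p = 0.00181). Without any single Wistar animal these 4 IDs still passed, with adjusted p between 0.000107 and 0.0114.

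**Figure D3:**
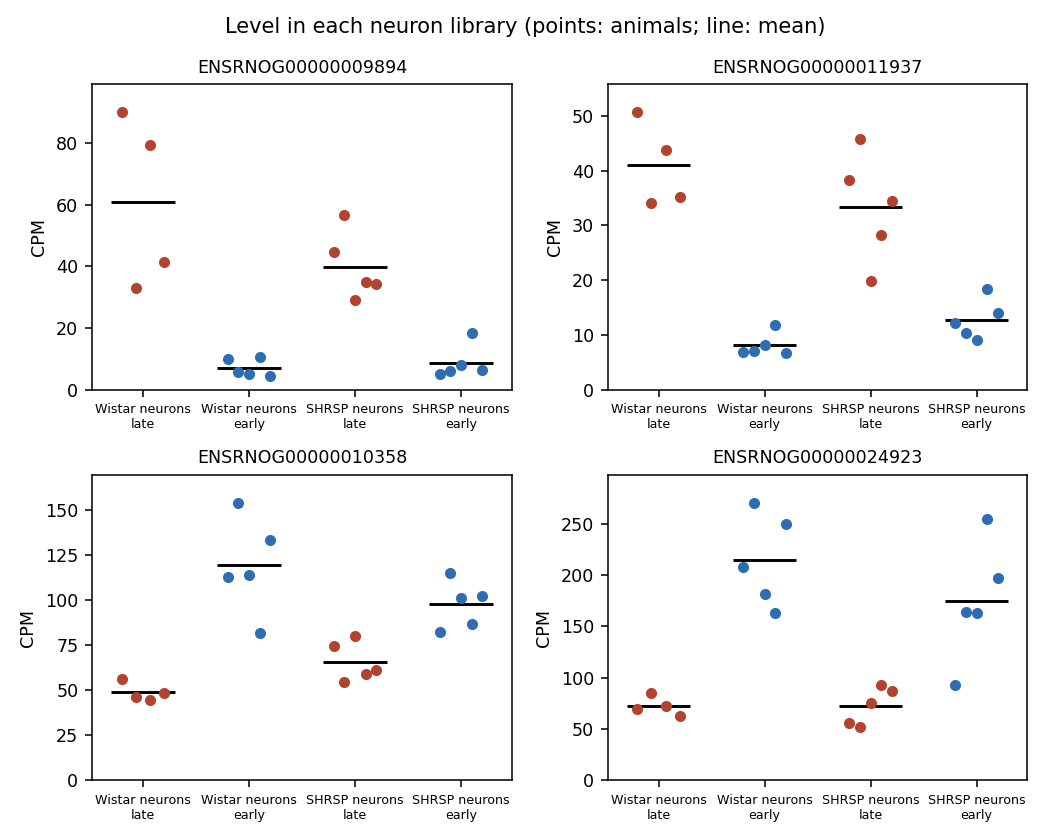
Level in CPM (y axis) of the 4 IDs in each neuron library, by strain and stage; points are animals and lines group means. In Wistar the late and early points do not overlap in any panel, with late animals higher in the upper panels and lower in the lower ones.

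Animal 349 was measured against calls that it took no part in. Without it, 1847 IDs were called in the Wistar comparison, 1128 higher and 719 lower in late libraries, and 1003 of them were among the 1009. On 1384 of the 1847, or 74.9%, the level in animal 349 was nearer the mean of the late animals than that of the other early animals. Its median position was 0.678 on a scale where 0 is the early and 1 the late mean, and it was on the late side for 79.6% of the higher and 67.6% of the lower calls. The other early animals, each set against the calls made without it, were on the late side for 15.0% (340), 20.6% (343), 20.7% (346) and 11.6% (368). Of the late animals, 350, 353 and 354 were on the late side for 92.6%, 98.5% and 88.4%, and 351, the late animal with the lowest share of ENSRNOG00000043866, for 57.2%. By share and by side alike, animals 351 and 349 thus lay between the other late and the other early animals. That the other late animals lay above the other early ones on both is partly built in, since the calls are by stage and the share ran with stage. The counts of IDs differ between these comparisons, from 197 without 353 to 1847 without 349.

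**Figure D4:**
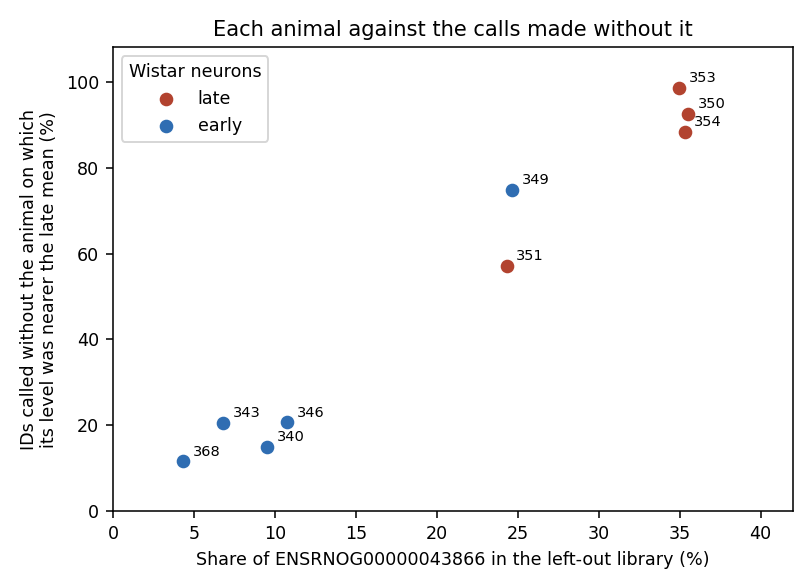
For each Wistar animal, the percentage of the IDs called without it on which its own level was nearer the late mean (y axis), against its share of ENSRNOG00000043866 (x axis, percent); red is late and blue early. The early animal 349 lies at 74.9% beside the late animal 351 at 57.2%, and the other early animals lie between 11.6% and 20.7%.

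With the set of high or low share as a term in the fit, 0 IDs were called by edgeR's quasi-likelihood test, and 517 of 10833, or 4.77%, had an unadjusted p under 0.05. Among the 11 high-share neuron libraries alone, where the early Wistar group is animal 349 and its spread is taken from the other groups, 0 were called, with 453 of 11708 (3.87%) at an unadjusted p under 0.05. DESeq2 and limma voom were not run within the set. Of the 1009 calls, 1008 kept their sign with the set as a term, 328 at an unadjusted p under 0.05, and their median log2 fold in the original direction was 0.72, against 1.24 without the term. Among high-share libraries alone it was 0.61. These libraries also chose the calls, which favours a shared sign. ENSRNOG00000009894, ENSRNOG00000011937, ENSRNOG00000010358 and ENSRNOG00000024923 had log2 folds of 2.19, 1.79, -0.93 and -1.73 with the set as a term and did not pass (adjusted p = 0.179, 0.179, 0.612 and 0.111). Stage and share can be told apart only as far as 1 early animal of each strain allows.

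The count also changed with the libraries, the scaling and the tool. With only the 9 Wistar neuron libraries in the fit, the spread came from these alone, and the filter also changed, leaving 9941 IDs tested. Of these 83 passed, 64 higher and 19 lower, all 83 among the 1009. DESeq2 over the 19 libraries called 1560. Without single animals the count was 635 (340), 1847 (349), 338 (350), 197 (353), 475 (354) and 475 (368), and without 343 it was 1038, of which 795 were among the 1009. Scaling by totals alone, chosen after the share was seen, moved the median log2 fold of all IDs to -0.48 and gave 388 higher and 2617 lower calls. With ENSRNOG00000043866 taken out before scaling it was 602 higher and 393 lower.

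Groups of IDs were then formed from the vessel and neuron libraries of the SHRSP animals, in which no Wistar library took part. There 3436 of 10802 IDs (31.8%) were higher in neurons and 232 (2.15%) higher in vessels, by a log2 fold of at least 1 at an adjusted p under 0.05. These groups describe the captures and are not cell type markers. IDs with any count numbered 4104 to 11685 in the SHRSP vessel libraries and 11987 to 14305 in the SHRSP neuron libraries. The part of detection in forming the groups was not tested. Of 3435 neuron-enriched IDs tested in Wistar neurons, 386 rose and 57 fell in late libraries, which is 11.2% and 1.66%, against 5.84% and 3.47% of all IDs tested. Scaled by totals alone, more of the group fell than rose, with 246 higher (7.16%) and 463 lower (13.5%), against 3.58% and 24.2% of all IDs tested, so relative to all IDs it still held more higher and fewer lower calls. Of 165 vessel-enriched IDs, 0 rose and 8 fell, 4.85% of the group, against 3.47% of all IDs tested. With totals alone it was 0 higher and 48 lower, 29.1% against 24.2% of all. Median log2 folds were 0.25 over neuron-enriched, -0.32 over vessel-enriched and -0.03 over all IDs tested.

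In the libraries themselves, the summed neuron-enriched IDs accounted for 21.6% to 25.5% of all counts but those of ENSRNOG00000043866 in late and 19.7% to 23.0% in early Wistar neurons. The vessel-enriched group stood at 1.29% to 1.86% in late and 1.59% to 2.58% in early Wistar neurons, while they held 4.32% to 9.73% in Wistar vessel libraries. The stage groups overlapped in both shares. The part of capture purity in the stage difference was not tested. Groups chosen without the animal as a block, an alternative added after seeing the data, were of another size. Of 1334 neuron-enriched IDs tested, 130 were then higher (9.75%) and 16 lower (1.2%), and of 398 vessel-enriched IDs tested 0 were higher and 19 lower (4.77%), against the same 5.84% and 3.47% of all.

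SHRSP neurons gave the comparison a second set of animals. No animal is shared, though both contrasts came from the same fit. There 959 IDs were called (8.85%), 663 higher (6.12%) and 296 lower (2.73%). Of the Wistar calls, 46.1% were also called with the same sign in SHRSP, and of the SHRSP calls 48.5% in Wistar. The share was 56.2% for the 633 higher Wistar calls and 29.0% for the 376 lower ones. Over all IDs tested it was 8.80%, both directions together, where 6.12% were called higher and 2.73% lower in SHRSP. Median log2 folds of the higher Wistar calls were 1.52 in Wistar and 1.29 in SHRSP, and of the lower calls -0.95 in Wistar and -0.56 in SHRSP. Since these IDs were chosen in Wistar, a smaller fold in SHRSP is partly built in: the IDs called in SHRSP had a median of 0.95 in Wistar and 1.15 in SHRSP, each in the direction of the call. Of the 1009 Wistar calls, 12 had the opposite sign in SHRSP, 0 of them at an unadjusted p under 0.05 in edgeR, while 8347 of all 10833 IDs tested (77.1%) had the same sign in both strains.

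The stage difference was not shown to differ between the strains. The test of the difference itself, in the same fit, gave 0 calls among 10833 IDs by edgeR. DESeq2 and limma voom also called 0. In edgeR 254 IDs had p under 0.05 before adjustment, fewer than that threshold gives when nothing differs. The 0 calls therefore do not show that the strains are alike. The IDs printed above moved the same way in both strains. ENSRNOG00000009894 was at 39.9 ± 10.9 CPM in late and 8.81 ± 5.48 CPM in early SHRSP neurons (SD, n = 5 each), a log2 fold of 2.13, which is 0.95 below that of Wistar (SE 0.51, adjusted p = 1). ENSRNOG00000010358 was at 65.8 ± 10.9 CPM in late and 97.4 ± 13.2 CPM in early SHRSP neurons, a log2 fold of -0.57 (adjusted p = 0.0455), and the difference from Wistar was -0.72 (SE 0.26, adjusted p = 1). ENSRNOG00000011937 and ENSRNOG00000024923 had log2 folds of 1.37 and -1.27 in SHRSP. For these the log2 fold in Wistar minus that in SHRSP was 0.96 (SE 0.39) and -0.30 (SE 0.32), and neither difference was called.

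The SHRSP animals were also placed on those IDs called in Wistar that had the same sign in the other SHRSP animals. Early animal 383, the early SHRSP animal with a high share of ENSRNOG00000043866, was nearer the late SHRSP mean on 55.2% of 996 such IDs, at a median position of 0.540. The other 4 early SHRSP animals were on the late side for 4.73% to 15.6%. Of the late SHRSP animals, 381 was on the late side for 57.9% and the other 4 for 87.2% to 96.1%. By share, animal 381 was not lowest in its group: it had 22.3%, and animals 378 and 384 had 20.4% and 21.3%. The count of SHRSP calls moved with single animals as well, to 426, 423, 214, 1441 and 366 without early animals 374, 377, 380, 383 and 386, and to 613, 180 and 432 without late animals 378, 379 and 384. With DESeq2-type scaling it was 796 higher and 184 lower, and with totals alone 478 higher and 1231 lower.

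**Figure D5:**
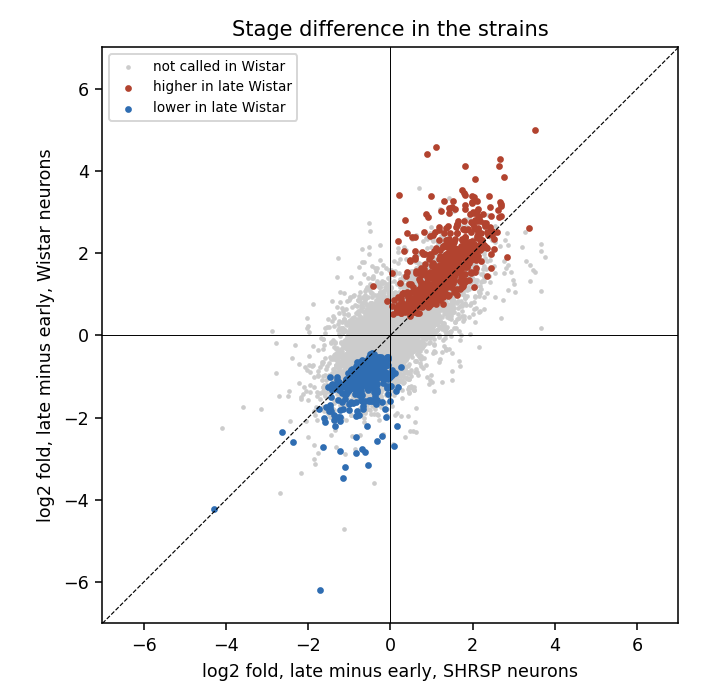
Log2 fold of late minus early neurons in Wistar (y axis) against SHRSP (x axis) for the 10833 IDs tested; red and blue points are the 633 higher and 376 lower Wistar calls, and the dashed line marks equal folds. Of the Wistar calls, 12 lie on the other side of 0 in SHRSP.

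In the vessel libraries of the same 9 Wistar animals, late minus early called 0 of 11169 IDs in an edgeR fit of both captures, with 1254 at an unadjusted p under 0.05. That count rested on animal 349: without its libraries 1705 of 10852 IDs were called in vessels, 1570 higher and 135 lower, and without any other single animal 0 were, an alternative added after the vessel values were seen. IDs with any count numbered 10478 to 11974 in late vessels, 11754 in early animal 349 and 5833 to 8752 in the other early vessels. The part of detection in the counts of calls was not tested. With all animals, of the 1001 neuron calls with a value in vessels, 775 had the same sign. For the calls higher in neurons it was 516 of 625, with a median log2 fold of 0.96 in vessels, and for the lower calls 259 of 376, with a median of -0.44. Over all IDs tested in vessels 57.8% had a positive and 42.2% a negative fold, with a median of 0.22. The captures share their animals, so these are no independent signs. The stage difference in neurons minus that in vessels was called for 0 IDs by edgeR (554 at an unadjusted p under 0.05), 2 with the animal as a block, 0 in limma voom and 68 in DESeq2. Without animal 349 it was 433, of which 430 were negative, that is, with a stage difference higher in vessels than in neurons.

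Of the printed IDs, ENSRNOG00000009894 had 7 to 87 counts in each of the 4 late vessel libraries. It had none in 4 of the 5 early ones, while early animal 349 had 17 counts. Those 4 early libraries also had the fewest IDs detected among the Wistar vessels, 5833 to 8752. The part of detection in this pattern was not tested. ENSRNOG00000009894 did not pass in vessels with all animals (edgeR, adjusted p = 0.342) and passed without animal 349 (adjusted p = 0.00312). The vessel groups of ENSRNOG00000011937 and ENSRNOG00000010358 overlapped. Neither ID passed there with all animals (log2 folds 1.78 and -1.31, edgeR, adjusted p = 0.653 and 0.519) or without animal 349 (adjusted p = 0.198 and 0.302). ENSRNOG00000024923 had 82.0 to 292.1 CPM in late and 177.5 to 1612 CPM in early vessels, on the scale of both captures, and a log2 fold of -1.55 there (adjusted p = 0.101). Early animal 368 alone had the 1612 CPM, against at most 365.8 CPM in the other early vessels, and without it the log2 fold was -0.61 (adjusted p = 0.539). Without animal 349 it was -1.63 (adjusted p = 0.0305). ENSRNOG00000043866 did not pass the test by stage in vessels (log2 fold 0.46, SE 0.57, adjusted p = 0.83). Early animal 349 had 540843 CPM of it there, against 88468 to 159831 CPM in the other early vessels, and without that animal the log2 fold was 1.26 (SE 0.27, adjusted p = 0.0047).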

How the data were processed

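The authors deposited whole-number counts per Ensembl gene ID for 32883 IDs. DESeq2 1.18.1, HTSeq 0.6.1, STAR 2.5.3a and FastQC 0.11.5 are the tools listed in the submitters' processing notes. Per the labels' protocols, laser-cut material was extracted with PicoPure and sequenced from the 3′ end with QuantSeq. Not given in the sources used here: genome build, annotation, strand setting and the animals' sex. IDs of near-identical or overlapping genes cannot be separated further.

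The 19 neuron libraries were fitted together in edgeR 4.0.16 (R 4.3.3) with the 4 groups as terms, after edgeR's filter on low counts, with TMM scaling and the robust quasi-likelihood F test, two-sided, calling IDs at an adjusted p under 0.05. SHRSP libraries share the estimate of the spread. The SE is the log2 fold divided by the square root of F. DESeq2 1.42.0 and limma 3.58.1 were alternatives. The fit was tested on simulated data. For positions of animals, log2 CPM had a prior count of 2. Animals are separately numbered. Within the groups the smallest chi-square per degree of freedom over 16 pairs was 6.33, more than counting error gives, so no library was another one sequenced again. A second capture of the same animal would not be detected this way. Neuron and vessel libraries were tied by animal number alone. The deviations of the 9 pairs correlated between -0.0184 and 0.425, with 3 pairs over 0.1, so for most animals the counts do not bear out the tie.

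The comparison, the gene lists and the tests were chosen with earlier results of these data known. The 37 lists and the rule for named genes need symbols; as 0 IDs matched the RefSeq gene table (GRCr8), the 2 rising and 2 falling IDs of smallest p were named, as set for that case, with the most abundant ID. P-values measure the spread between animals, cutting and library making included. In the neuron fit that spread is pooled over the 4 groups, so for Wistar it rests partly on SHRSP animals. The SHRSP groups varied less than early Wistar (biological coefficients of variation 0.272 and 0.275, against 0.560). Intervals are Clopper-Pearson and cover counting error only.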

Additional observations from a re-analysis of the deposited data

Results flagged for a closer look

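Values of single libraries that stood apart from the rest of their group (a gap to the nearest library above Dixon's 95% critical value) were found in 9 cases among 44 groups of values screened, and chance flags about 1 in 20 groups. The cases are not independent, since several are measures of the same library.

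Late Wistar animal 351 had a share of ENSRNOG00000043866 of 24.3% in neurons, against 34.98% to 35.5% in the other late animals, and a level of 255312 CPM, against 446971 to 455081 CPM. Early SHRSP animal 383 had a share of 21.8% in neurons, against 5.37% to 6.74%, and a level of 222536 CPM, against 46056 to 57596 CPM in the other early SHRSP animals. In the same library ENSRNOG00000009894 was at 18.4 CPM, against 4.99 to 8.13 CPM.

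Early Wistar animal 349 had a share of ENSRNOG00000043866 of 40.6% in its vessel library, against 9.73% to 16.3% in the other early Wistar vessels, and its neuron library had 11.9 CPM of ENSRNOG00000011937, against 6.67 to 8.08 CPM in the other early Wistar neurons. Early Wistar animal 343 had 9501 IDs with at least 1 count in neurons, against 12849 to 14045, and 9440 at equal depth, against 12751 to 13684.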

How the results depend on the processing

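The Wistar stage calls numbered 1009. Alternatives gave 83 (only Wistar libraries), 1560 (DESeq2), 0 (library set as a term), 0 (high-share set only), 3005 (totals alone, added after seeing the data) and 197 to 1847 without single animals; DESeq2-type scaling, no filter, limma voom and leaving out the most abundant ID stayed within 1.5 times. The cause of these changes was not tested. For SHRSP, 959 became 2033 (only SHRSP libraries), 627 (limma voom), 0 (set term), 4 (high-share set), 1709 (totals alone) and 180 to 1441 without single animals. The difference between the strains stayed at 0 calls in all 27 alternatives run. The difference between the captures, 0 calls, became 2 with the animal as a replicate block, which pairs the libraries of an animal, 68 in DESeq2 and 0 to 433 without single animals. No paired analysis was possible because late and early animals share no number within a capture. The share difference of 21.3 points ranged from 19.6 to 24.7 without single animals (exact permutation p 0.0179 to 0.0571, over 0.05 without early animal 340, 343, 346 or 368), and IDs at equal depth differed by 433 to 1494 (exact permutation p 0.0286 to 0.393, the lowest without early animal 349). Late minus early in vessels ran from 0 to 1705 calls without single animals, against 0 with all. The 4 IDs of smallest p kept their direction in 18 alternatives and ENSRNOG00000043866 in the 16 that gave it an adjusted p, at log2 folds of 0.58 to 2.55. Depth limits the IDs of low level.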

Other observations

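Some IDs were counted in late but not in early Wistar neurons, at a depth too low for the test. Of all 32883 IDs in the table, 35 had a count in each of the 4 late libraries and none in the 5 early ones. The reverse, a count in each of the 5 early libraries, was found for 0 IDs, but it asks more, since it needs 1 more library and includes animal 343 with its 9501 IDs detected. They held 4 to 22 counts summed over the 4 late libraries, with a median of 10, and 0 of the 35 passed the filter on low counts. In SHRSP neurons 10 of the 35 were counted in at least 4 of the 5 late libraries, and 8 had no count in the 5 early ones. No rate over other IDs of such low counts was taken beside these, so they are not read as a repeat.

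Without ENSRNOG00000043866, the first principal component of the 9 Wistar neuron libraries held 54.3% of the variance and set early animal 343 apart, at -163.1 against -8.82 to 50.1 in the others. The second held 18.2% and placed late animals 350, 353 and 354 at -32.3, -39.9 and -29.6, late animal 351 at -3.09, early animal 349 at 0.295, and early animals 340, 346 and 368 at 40.5, 36.7 and 60.8; animal 343 was at -33.4. The count of the most abundant over the second most abundant ID was 3.88 to 5.12 in late and 2.72 to 5.31 in early Wistar neurons. Excluding the most abundant ID, the IDs called higher made up 15.7% to 23.3% of the counts in late and 5.42% to 13.5% in early Wistar neurons, where animal 349 was highest. These IDs were chosen for that difference. In SHRSP neurons, which did not choose them, they made up 13.3% to 26.6% in late and 6.84% to 13.4% in early libraries, the 13.4% in animal 383.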
